A study of Mus musculus with 160 samples.

Results

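The genes described here are 30 cytokine receptors, the surface proteins through which blood-forming, endothelial and stromal cells sense interleukins, colony-stimulating factors, erythropoietin and stem cell factor. They were taken by symbol from the 46078 genes of the count table, and all 30 had a row. Pools of 20 cells were sorted from the aorta-gonad-mesonephros (AGM) region of mouse embryos, with 20 pools for each of 8 populations. All embryos carried 1 Gata3-GFP reporter allele (Gata3-GFP +/-), in which GFP is expressed from the Gata3 locus, so the GFP- cells carried it too and served as the comparison for the GFP+ cells. At E10.5 the populations were GFP+ and GFP- endothelial cells (ECs, Cdh5+ without CD41 or CD45) and GFP+ and GFP- hematopoietic cells (HCs, with CD41 or CD45). At E11.5 they were GFP+ and GFP- mesenchymal cells (MCs, Pdgfrb+) and GFP+ and GFP- cells of the sympathetic nervous system (SNS, Ngfr+). At E10.5 the cells of each population came from fewer biological replicates, each made by pooling embryos, than there were pools, so pools share replicates, and the labels do not tie a pool to its replicate. The p-values therefore measure the spread between pools and are too small as a measure of the spread between embryos. At E11.5 the number of replicates is not given in the sources used here, and the p-values likewise measure the spread between pools.

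Most of these receptors have no enzyme of their own. The gp130 group (Il6st encodes gp130), the common gamma chain group (Il2rg) and the beta common group (Csf2rb) pair a ligand-binding chain with a shared signaling chain, and pass the signal on through JAK kinases and STAT factors. Kit and Flt3 are tyrosine kinases, the IL-1 family signals through MyD88, and the IL-17 receptors signal through the adaptor encoded by Traf3ip2. In the AGM, hematopoietic stem cells arise from endothelium, and stem cell factor, the ligand of Kit, supports them.

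The promoters of 24 of the 30 genes were found in RefSeq (GRCm38.p6), as 32 stretches from 250 bases before to 50 bases after a start site. They were searched on both strands for letters that GATA factors bind (AGATAA, with T allowed in place of the first A and G in place of the last), since the cells were sorted on a Gata3 reporter, and for GAGGAA, which PU.1 of myeloid cells binds. The GATA letters were in 8 of the 32 stretches (25.0%), against 29.8% of all 32851 promoters of that length, and GAGGAA was in 11 (34.4%), against 28.3%. The 4 promoters printed here belong to genes on which the comparisons turn, Osmr and Epor in ECs, Csf2ra in both E10.5 cell types, and Csf3r in HCs. Capitals mark the GATA letters in Epor and GAGGAA in the other 3, on either strand, and each sequence runs 5′ to 3′ along the strand of its gene.
Epor: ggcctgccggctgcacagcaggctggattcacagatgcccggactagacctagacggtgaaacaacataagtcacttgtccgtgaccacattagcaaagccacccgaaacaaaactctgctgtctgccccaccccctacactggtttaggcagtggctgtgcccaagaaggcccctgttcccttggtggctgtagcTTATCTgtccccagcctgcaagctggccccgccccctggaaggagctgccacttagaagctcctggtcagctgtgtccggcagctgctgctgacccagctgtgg
Osmr: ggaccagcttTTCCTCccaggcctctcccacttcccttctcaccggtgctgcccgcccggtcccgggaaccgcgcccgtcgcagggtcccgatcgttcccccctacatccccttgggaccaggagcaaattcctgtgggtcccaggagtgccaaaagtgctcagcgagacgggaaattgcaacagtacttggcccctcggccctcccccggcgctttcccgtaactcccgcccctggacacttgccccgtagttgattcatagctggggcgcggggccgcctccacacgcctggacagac
Csf2ra: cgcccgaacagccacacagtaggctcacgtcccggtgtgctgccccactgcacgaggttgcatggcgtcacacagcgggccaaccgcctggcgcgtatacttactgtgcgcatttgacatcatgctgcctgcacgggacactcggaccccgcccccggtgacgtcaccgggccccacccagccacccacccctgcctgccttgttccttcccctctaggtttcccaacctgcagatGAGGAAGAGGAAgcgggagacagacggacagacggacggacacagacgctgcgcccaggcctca
Csf3r: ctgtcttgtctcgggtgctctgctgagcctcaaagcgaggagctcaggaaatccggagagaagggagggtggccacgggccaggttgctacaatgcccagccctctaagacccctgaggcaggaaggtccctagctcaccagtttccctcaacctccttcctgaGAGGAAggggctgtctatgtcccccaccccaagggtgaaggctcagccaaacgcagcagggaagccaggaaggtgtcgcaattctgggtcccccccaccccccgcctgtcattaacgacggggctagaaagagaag
The Epor stretch is chr9:21963527-21963826 on the minus strand, and its match begins 54 bases before the start site. Osmr is chr15:6874264-6874563 on the minus strand, with a match 240 bases before. Csf2ra is chr19:61228369-61228668 on the minus strand, with 2 adjoining matches 14 and 8 bases before, and Csf3r is chr4:126024409-126024708 on the plus strand, with a match 86 bases before. No binding was measured, so these letters are a description only.

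Of the 160 pools, 153 passed the limits on read number and composition, with 1400824 to 16004756 counts on genes and a median of 3801233. That left 19 GFP+ and 20 GFP- EC pools, 20 and 20 HC pools, 20 and 17 MC pools, and 18 and 19 SNS pools. Levels are given as CPM, the counts of a gene scaled to the same total for every pool, after TMM normalization. They come from amplified reads without molecular identifiers, and in pools of cells, fewer expressing cells and less RNA per cell cannot be told apart. Gata3 was at 78.2 ± 29.4 CPM (n = 19) in GFP+ ECs against 12 ± 6.78 CPM (n = 20) in GFP- ECs (SD throughout), and at 49 ± 30.6 CPM (n = 20) against 6.76 ± 2.87 CPM (n = 20) in HCs.

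Some E11.5 pools went against their labels. In 17 of 20 libraries labelled GFP+ MC, 10 mesenchymal markers summed to 4006 to 5759.6 CPM and 16 sympathetic and neural crest markers to 118 to 237 CPM, whereas the other 3 had 526 to 779 CPM and 1528 to 1978 CPM. In 14 of 17 labelled GFP- MC the sums were 2847 to 4296 CPM and 30.4 to 153 CPM, and in the other 3 95.2 to 214 CPM and 2626 to 5229 CPM. Among libraries labelled SNS it was the reverse. The mesenchymal sum was 112 to 345 CPM in 15 of 18 GFP+ and 406 to 949.6 CPM in 16 of 19 GFP- libraries, but 2939 to 3096 CPM and 4204 to 5863 CPM in the other 3 of each. By the mesenchymal sum, the 12 libraries also went with the other GFP fraction. Those labelled GFP- SNS were near GFP+ MCs, and those labelled GFP+ SNS were in the range of GFP- MCs. Those labelled GFP+ MC were in the range of GFP- SNS cells, and those labelled GFP- MC were below it, near GFP+ SNS cells. The GFP comparisons with all libraries thus hold pools that by this sum go against their GFP label. Counted in the order of the columns, the 12 were pools 18, 19 and 20 under each E11.5 label. The cause was not tested. These 12 libraries were not moved to another group, and each E11.5 result is given with and without them. Gata3 in libraries labelled MC was at 38.4 ± 15.9 CPM (n = 20) in GFP+ and 59.9 ± 123 CPM (n = 17) in GFP- with them, and at 37.4 ± 12.5 CPM (n = 17) and 10.04 ± 4.4 CPM (n = 14) without them. In libraries labelled SNS it was at 162 ± 88.8 CPM (n = 18) and 45 ± 22 CPM (n = 19) with them, and at 191 ± 63.9 CPM (n = 15) and 44.5 ± 24.1 CPM (n = 16) without them.

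**Figure D1:**
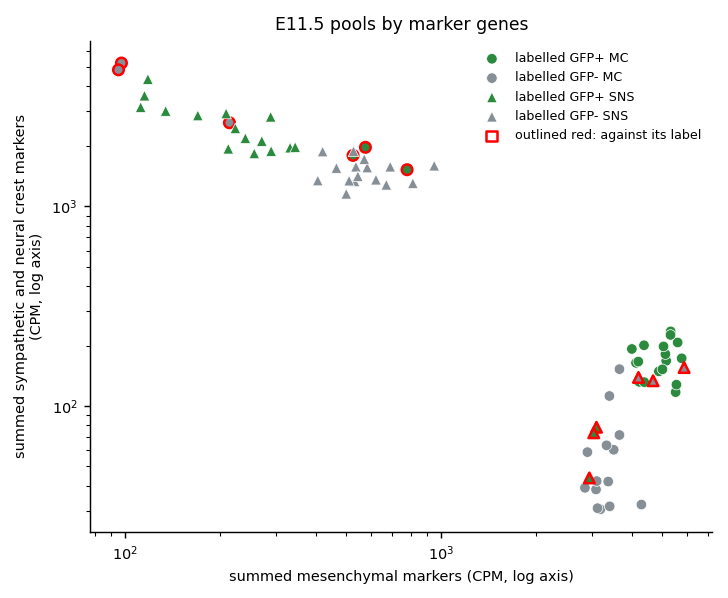
Summed CPM of 10 mesenchymal markers (horizontal, log axis) and of 16 sympathetic and neural crest markers (vertical, log axis) in each E11.5 pool, with the label of each pool shown by its symbol and color. The 12 pools ringed in red, 3 under each of the 4 labels, lie with the cells of the other cell type.

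Across the 8 populations, taken without the 12 libraries, 12 of the 30 genes had their highest mean in GFP- HCs, 7 in GFP+ MCs, 6 in GFP+ ECs, 5 in GFP+ HCs and 0 in an SNS fraction. The 10 genes with a mean above 1 CPM in each of the 8 populations were Il1rap, Il4ra, Il13ra1, Il3ra, Csf2ra, Il6st, Il11ra1, Lifr, Il10rb and Kit. At the other end, 14 genes were under 1 CPM in all 4 E11.5 populations. Il2ra, the alpha chain of the IL-2 receptor, was under 1 CPM in every pool.

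Per kilobase of exon, which allows different genes to be set side by side, the receptors with the highest mean levels differed between populations. In GFP+ ECs they were Il2rg (27 CPM per kb), Il11ra1 (21.6) and Lifr (13.5), and in GFP- ECs Il11ra1 (12.6 CPM per kb), Il2rg (9.91) and Kit (6.49). In GFP+ HCs Epor (23.8 CPM per kb), Il4ra (16.9) and Il10rb (16.5) led, and in GFP- HCs Il4ra (22.5 CPM per kb), Il10rb (19.7) and Csf2ra (16.9). In both MC fractions Il11ra1 led, at 22.7 CPM per kb in GFP+ and 18.7 in GFP- cells. In SNS cells the leading genes were Kit in GFP+ (6.19 CPM per kb) and Il11ra1 in GFP- cells (6.29). Il2rg shares 30.5% of its exon bases with Gm20489 and Il10rb 14.9% with Gm21970 on the same strand, and Il11ra1 and Csf2rb have near-identical copies (Il11ra2, Csf2rb2), so the levels of these genes are uncertain.

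The GFP+ and GFP- pools of ECs were compared to ask which receptors distinguish endothelium with an active Gata3 locus. All receptors past the threshold (edgeR quasi-likelihood test, Benjamini-Hochberg adjusted p under 0.01 and log2 fold change beyond 0.1) were higher in GFP+ ECs. They were Osmr, Lifr, Il11ra1 and Il6st of the gp130 group, the alpha chains Csf2ra and Il3ra of the beta common group, Il2rg, and Epor. These were 8 of the 20 members with enough counts to be tested (40%), against 36.0% of the 15073 genes tested that passed in either direction and 19.5% that passed as higher. The median log2 fold change was 0.77 over these members and 0.10 over all genes.

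Osmr (chr15:6813577-6874969, GRCm38), the chain that binds oncostatin M together with gp130, differed most. It had 25.6 to 96.3 CPM (median 47.6) in the GFP+ EC pools and 0 to 9.05 CPM (median 1.62) in the GFP- EC pools. Every GFP+ pool was above every GFP- pool. The means were 51.9 ± 21.6 CPM (n = 19) and 2.09 ± 2.23 CPM (n = 20), with a log2 fold change of 4.57 ± 0.36 (SE throughout for log2 fold changes, adjusted p = 3.37e-14). Outside ECs its highest mean was 0.901 CPM, in GFP+ HCs. Oncostatin M itself (Osm) had a mean of 0.0598 CPM in GFP+ ECs and was at 0 in 20 of 20 GFP- EC pools.

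Lifr encodes the receptor for leukemia inhibitory factor and pairs with gp130. It had 93.3 to 222 CPM (median 139) in GFP+ and 32 to 88.1 CPM (median 68.3) in GFP- ECs. The fractions did not overlap (log2 fold change 1.12 ± 0.11, adjusted p = 4.76e-11). The shared chain Il6st had 30.8 to 127 CPM (median 59.7) against 22 to 54.3 CPM (median 34.9), and 11 of 19 GFP+ pools lay above all GFP- pools (log2 fold change 0.72 ± 0.15, adjusted p = 1.39e-04). Il11ra1, the IL-11 receptor, had 69.7 to 134 CPM (median 97.3) against 32.3 to 92.6 CPM (median 51.5), with 12 of 19 GFP+ pools above all GFP- pools (log2 fold change 0.74 ± 0.11, adjusted p = 5.49e-07). Other chains of the group did not pass. Il6ra, which binds IL-6, was at 1.92 ± 2.01 and 1.07 ± 0.761 CPM, and Il27ra, which binds IL-27, at 3.59 ± 4.05 and 2.59 ± 3.44 CPM in GFP+ and GFP- ECs.

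Csf2ra (chr19:61223957-61228429), the alpha chain that binds GM-CSF, had 3.39 to 31.7 CPM (median 15.7) in GFP+ and 0.325 to 9.34 CPM (median 3.9) in GFP- ECs. In 16 of 19 GFP+ pools it was above every GFP- pool (log2 fold change 2.0 ± 0.29, adjusted p = 1.53e-07). Il3ra, the alpha chain that binds IL-3, had 0.351 to 21.5 CPM (median 12.5) against 0 to 16.5 CPM (median 4.1), with 5 of 19 GFP+ pools above all GFP- pools (log2 fold change 1.26 ± 0.40, adjusted p = 0.00798). The Il3ra call was lost without the 1 GFP+ EC pool that carried over 1000 CPM of mesenchymal markers (log2 fold change 1.21), with scran size factors (1.21) and with no filter on low counts (1.28). The beta chains that signal for these receptors had too few counts to be tested in ECs. Csf2rb averaged 0.467 ± 0.428 and 0.744 ± 0.874 CPM, and Csf2rb2 1.02 ± 3.8 and 0.507 ± 1.69 CPM in GFP+ and GFP- ECs.

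Il2rg, the shared chain of the IL-2, IL-4, IL-7, IL-15 and IL-21 receptors, had 23.7 to 111 CPM (median 63.7) in GFP+ and 3.46 to 49.2 CPM (median 23.6) in GFP- ECs. In 14 of 19 GFP+ pools it exceeded all GFP- pools (log2 fold change 1.4 ± 0.22, adjusted p = 7.17e-07). Of its partner chains, Il4ra (12.2 ± 7.63 and 11.3 ± 8.15 CPM) and Il15ra (4.24 ± 4.83 and 2.45 ± 3.39 CPM) were tested in ECs and did not pass, nor did Il13ra1 (10.1 ± 7.65 and 12.6 ± 6.92 CPM), which pairs with Il4ra. Il2ra, Il2rb, Il7r and Il21r had too few counts to be tested there.

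Epor (chr9:21958897-21963506), the erythropoietin receptor, had 0 to 30.6 CPM (median 4.24) in GFP+ and 0 to 6.64 CPM (median 0.656) in GFP- ECs. The fractions overlapped, with 8 of 19 GFP+ pools above all GFP- pools (log2 fold change 2.13 ± 0.63, adjusted p = 0.00471). Kit (chr5:75574916-75656722), the receptor of stem cell factor, was at 60.2 ± 34.5 CPM (n = 19) in GFP+ and 57.8 ± 24.1 CPM (n = 20) in GFP- ECs and did not pass (log2 fold change 0.015 ± 0.22, adjusted p = 0.961). In the IL-1 family, Il1r1 was at 8.67 ± 8.84 against 2.38 ± 3.0 CPM (log2 fold change 1.81 ± 0.60, adjusted p = 0.0119). It did pass with DESeq2 (1.86) and with the study's own test, rerun here with the filter and threshold of this report (2.11). Il1rap, its accessory chain, was at 8.62 ± 8.78 against 3.25 ± 3.31 CPM (adjusted p = 0.0514). Il17ra, Il17rc, Csf3r and Il10rb were tested and did not pass, and Il1rl1, Il18r1, Il10ra and Flt3 had too few counts.

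**Figure D2:**
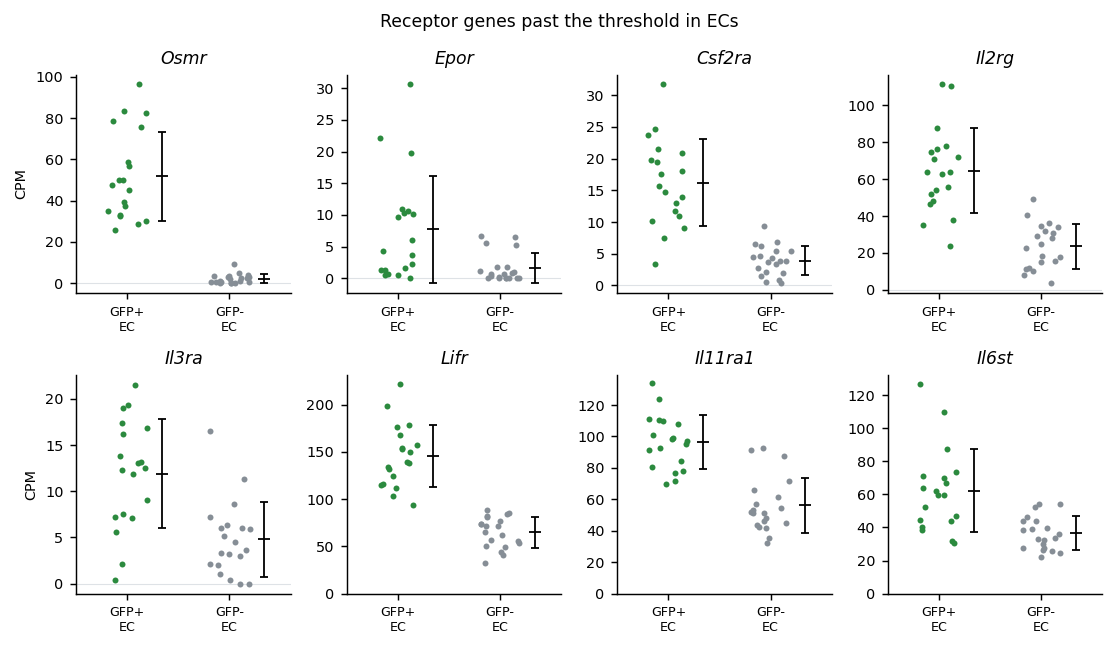
CPM of the 8 receptor genes past the threshold in ECs, 1 point per pool, for the 19 GFP+ and the 20 GFP- EC pools, with bars for the mean ± SD. Osmr and Lifr separate completely, and the other 6 genes overlap between the fractions. The 8 genes were picked by the test on these pools, and the share of all genes that separate as far was not counted.

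Markers of other cell types also moved with GFP in ECs. Of the 10 mesenchymal markers 7 were tested and 7 were higher in GFP+ ECs, with sums of 26.2 to 1599.9 CPM (median 94) against 3.9 to 71.1 CPM (median 15.6). Of the 10 sympathetic markers 4 were tested and 3 were higher, with sums of 326 to 817 CPM against 15.5 to 158 CPM. The sympathetic sums did not overlap between the fractions. Stmn2 (mean 405 CPM in GFP+ ECs) and Isl1 (108 CPM) made up most of the GFP+ sums, and the other 8 markers had means from 0.0167 CPM (Phox2a) to 4.0 CPM (Ddc), with Th at 0 in 12 of 19 GFP+ pools. Of 10 endothelial markers 9 were higher and 1 was lower, with sums of 7145 to 9579 CPM in GFP+ and 4734 to 6962 CPM in GFP- ECs. Blood cell markers moved as well. Of 9 general hematopoietic markers tested 3 were higher and 1 lower in GFP+ ECs, with sums of 302 to 569 CPM (median 426) against 204 to 354 CPM (median 297). Of 4 erythroid markers tested 2 were higher, with sums of 6.49 to 126 CPM (median 23.6) against 2.17 to 38.6 CPM (median 8.38). Of 7 megakaryocyte markers tested 2 were higher, with sums of 18.6 to 262 CPM (median 60.2) against 17.8 to 207 CPM (median 72.7). Without the 1 pool highest in mesenchymal markers Osmr (4.59), Epor (2.09), Csf2ra (2.01), Il2rg (1.36), Lifr (1.11), Il11ra1 (0.73) and Il6st (0.70) passed again. The part of these markers in the receptor differences was not tested.

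The EC result moved with the scaling. When pools were scaled to the ERCC spike-in RNAs, the median log2 fold change of all genes went from 0.10 to -0.60, with 951 genes higher and 5685 lower in GFP+ ECs, against 2932 genes higher and 2492 lower with TMM. Of the 8 receptors, Osmr (3.96) and Csf2ra (1.24) passed under that scaling. The other 6 did not, with values of 1.21 for Epor, 0.66 for Il2rg, 0.48 for Il3ra, 0.46 for Lifr, 0.13 for Il6st and 0.012 for Il11ra1, all above the median of all genes. Il10rb, the shared chain of the IL-10 and related receptors, passed as lower (-0.90).

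In HCs the same comparison gave changes in both directions. The G-CSF receptor Csf3r, the shared beta chain Csf2rb, Csf2ra, Il6ra and Il17ra were lower in GFP+ HCs, and Epor, Il17rc and Il27ra were higher. These 8 of 27 members tested (29.6%) stand against 26.6% of the 16200 genes tested, the 5 lower against 9.53% of genes and the 3 higher against 17.1%. The median log2 fold change was -0.41 over the members and 0.049 over all genes.

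Csf3r, which drives neutrophil production, had 0.317 to 55.3 CPM (median 18.8) in GFP+ and 30.1 to 83 CPM (median 53.8) in GFP- HCs. In 19 of 20 GFP+ pools it was below every GFP- pool (log2 fold change -1.65 ± 0.28, adjusted p = 6.48e-06). Csf2rb (chr15:78325752-78353847), the signaling chain of the IL-3, IL-5 and GM-CSF receptors, had 0.634 to 53.8 CPM (median 23.4) against 44.3 to 128 CPM (median 67), with 17 of 20 GFP+ pools below all GFP- pools (log2 fold change -1.72 ± 0.26, adjusted p = 1.40e-06). Its near-identical copy Csf2rb2 was at 3.86 ± 4.25 and 10.6 ± 7.96 CPM and did not pass (adjusted p = 0.0192), though it did with DESeq2 (-1.39) and the study's own test (-2.21). Csf2ra had 7.29 to 43.1 CPM (median 19.4) against 28.6 to 77.6 CPM (median 47.1), and 16 of 20 GFP+ pools were below all GFP- pools (log2 fold change -1.15 ± 0.16, adjusted p = 3.55e-07).

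Il6ra had 5.07 to 113 CPM (median 37.3) in GFP+ and 60.3 to 122 CPM (median 79.7) in GFP- HCs. In 19 of 20 GFP+ pools it was below every GFP- pool (log2 fold change -1.17 ± 0.20, adjusted p = 1.03e-05). Il17ra, the common chain of the IL-17 receptors, had 6.02 to 55.5 CPM (median 20.8) against 30.01 to 104 CPM (median 65.7), with 17 of 20 GFP+ pools below all GFP- pools (log2 fold change -1.59 ± 0.21, adjusted p = 8.71e-08). In each of the 5 lower receptors, most GFP+ pools lay below the range of the GFP- pools. These 5 were picked by the test on the same pools, and the share of all genes that separate as far was not counted.

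Epor had 6.89 to 144 CPM (median 33.7) in GFP+ and 0.291 to 19.97 CPM (median 9.05) in GFP- HCs, with 15 of 20 GFP+ pools above all GFP- pools (log2 fold change 2.4 ± 0.36, adjusted p = 8.93e-07). Il27ra and Il17rc were called from few reads. Il27ra had 0 to 14.5 CPM (median 0.332) in GFP+ HCs and at most 0.558 CPM in a GFP- HC pool (log2 fold change 4.38 ± 0.84, adjusted p = 5.75e-05), and 5 of 20 GFP+ pools had 10 counts or more. It entered the test only through those 5 pools, where it was high, so its call is weak. Il17rc, a chain that pairs with Il17ra, was at 2.42 ± 3.01 and 0.349 ± 0.770 CPM (log2 fold change 2.65 ± 0.80, adjusted p = 0.00729). Its call was lost without the 1 GFP+ HC pool highest in megakaryocyte markers (2.52), with the study's own test (2.66) and with no filter on low counts (2.62).

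The other tested receptors did not pass in HCs, and several were abundant in both fractions. Il4ra was at 102 ± 71 CPM in GFP+ and 135 ± 40.9 CPM in GFP- HCs, Il10ra at 52.7 ± 24.6 and 47.2 ± 22.7 CPM, and Il10rb at 62.8 ± 28.2 and 74.8 ± 19.1 CPM. Among the lymphoid chains, Il21r was at 23.3 ± 12 and 32.6 ± 16.9 CPM, Il2rg at 21.7 ± 9.26 and 29.9 ± 13 CPM, and Il7r at 13.6 ± 19.5 and 7.88 ± 8.3 CPM. Kit was at 27.5 ± 23.3 and 17.7 ± 14.4 CPM (log2 fold change 0.64 ± 0.44, adjusted p = 0.261), and Flt3, the receptor of FLT3 ligand, at 5.29 ± 9.15 and 8.14 ± 9.2 CPM. Il1rl1, the IL-33 receptor, was at 2.4 ± 4.21 and 4.7 ± 5.18 CPM. Il2rb, which binds IL-2 and IL-15, was at 0 in 11 of 20 GFP+ pools and in 17 of 20 GFP- pools (log2 fold change 2.75 ± 1.02, adjusted p = 0.03). Il2ra, Il18r1 and Osmr had too few counts to be tested.

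**Figure D3:**
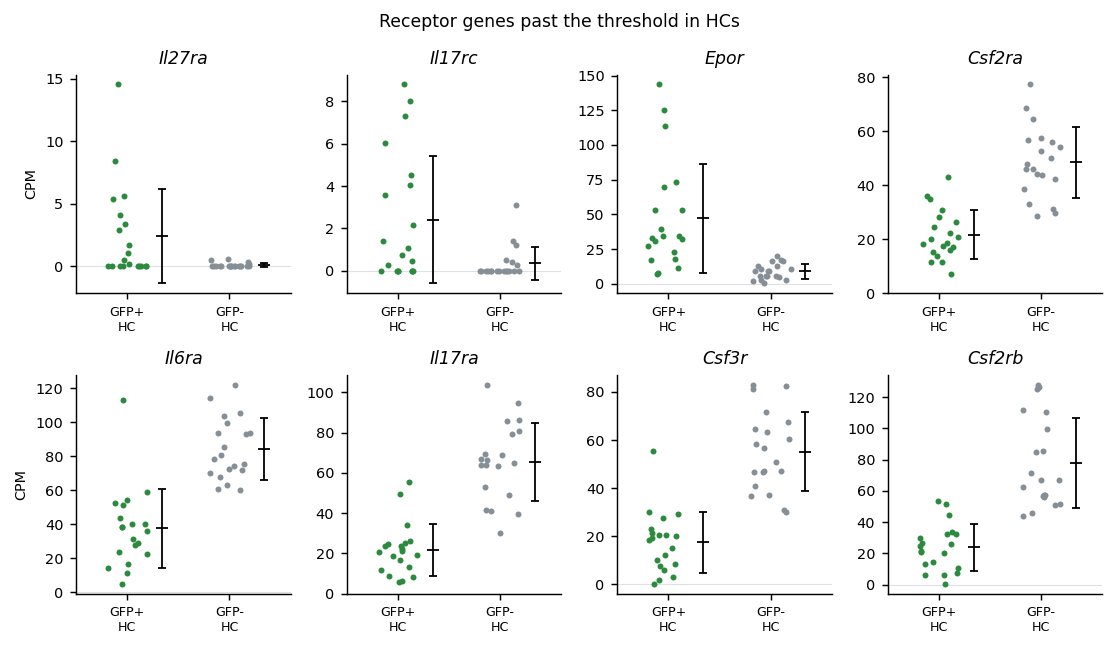
CPM of the 8 receptor genes past the threshold in HCs, 1 point per pool, for the 20 GFP+ and the 20 GFP- HC pools, with bars for the mean ± SD. Epor, Il17rc and Il27ra are higher in GFP+ pools and the other 5 genes lower.

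Markers of cell types also differed between the HC fractions. Of the 8 megakaryocyte markers 8 were higher in GFP+ HCs, with sums of 1641 to 59699.8 CPM (median 10221) against 139.5 to 3884 CPM (median 602). Of the 8 granulocyte markers 7 were tested and 7 were lower, with sums of 7.71 to 369.9 CPM (median 36) against 63.3 to 28842 CPM (median 1285). Of 12 macrophage markers 3 were lower, with sums of 231 to 11825 CPM against 5501 to 12353 CPM. Of 10 general hematopoietic markers 7 were lower and 1 higher, with sums of 1845 to 4403 CPM (median 2825) against 4300.2 to 6458 CPM (median 4988), and of 10 endothelial markers 7 were higher, with sums of 149 to 710.0 CPM (median 251) against 108 to 256 CPM (median 126). In addition 9 of 9 sympathetic markers tested were higher in GFP+ HCs (7.71 to 1921 CPM against 1.7 to 11.9 CPM), as were 9 of 10 mesenchymal markers (19.1 to 957 CPM against 3.33 to 167 CPM), and Th was at 0 in 6 of 20 GFP+ pools. Of 9 erythroid markers tested 0 were higher and 1 was lower, with sums of 3.3 to 184 CPM (median 55.5) against 2.84 to 1511 CPM (median 26). Among those tested, 3 of 4 neural crest and 2 of 2 nephric epithelium markers were higher, and 1 of 2 mast cell and 1 of 4 germ cell markers lower.

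The calls were recomputed without such pools. Without the 12 GFP- HC pools over 1000 CPM of granulocyte markers, Il17ra (-1.66), Csf3r (-1.6), Csf2rb (-1.52), Il6ra (-1.15) and Csf2ra (-1.11) were again lower and Epor (1.82) higher. Il17rc (2.73) and Il27ra (4.63) did not pass there, and Il2rb did (6.48). The 8 remaining GFP- pools had at most 0.220 CPM of Il2rb, so its fitted value depends on the prior count. Without the 6 GFP+ HC pools over 200 CPM of sympathetic markers, the 5 lower receptors, Epor (2.45) and Il17rc (2.7) passed, and Il27ra had too few counts to be tested. Without the 1 pool highest in megakaryocyte markers the 5 lower receptors, Epor (2.24) and Il27ra (4.37) passed. These fits left marker differences between the fractions in place. The 8 GFP- pools kept had granulocyte sums of 63.3 to 833 CPM, against 7.71 to 369.9 CPM (median 36) in GFP+ pools. Megakaryocyte sums were still 1641 to 27601 CPM in the GFP+ pools left without the highest, against 139.5 to 3884 CPM in GFP- pools. The part of the markers in the receptor differences was not tested.

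The effect of GFP was then compared between HCs and ECs in 1 fit of the 4 E10.5 populations, which uses the same pools. Of 28 members tested, 8 differed (28.6%, against 22.7% of 17851 genes). Csf2ra was called higher in GFP+ ECs and lower in GFP+ HCs, and the difference of the log2 fold changes, HCs minus ECs, was -3.15 ± 0.31, adjusted p = 1.12e-13. Il2rg differed by -1.87 ± 0.30, adjusted p = 5.25e-07, Il3ra by -1.98 ± 0.50, adjusted p = 0.00112, Il6st by -0.94 ± 0.25, adjusted p = 0.00211, and Lifr by -0.88 ± 0.25, adjusted p = 0.00458. Osmr differed by -3.45 ± 0.65, adjusted p = 1.49e-05, Il6ra by -1.98 ± 0.44, adjusted p = 1.99e-04, and Il27ra, in the other direction, by 3.9 ± 1.07, adjusted p = 0.00286. Osmr had too few counts to be tested in HCs alone, so the HC side of its difference rests on few reads. The Il27ra difference did not pass without the pools high in sympathetic (3.35) or granulocyte markers (4.11). With ERCC scaling the differences of Osmr (-2.93), Csf2ra (-2.46), Il2rg (-1.15) and Il27ra (4.5) passed, and those of Il6ra (-1.23), Il3ra (-1.07), Il6st (-0.39) and Lifr (-0.36) did not. Epor was called higher in GFP+ cells of both types, and the difference did not pass (0.32 ± 0.70, adjusted p = 0.769).

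**Figure D4:**
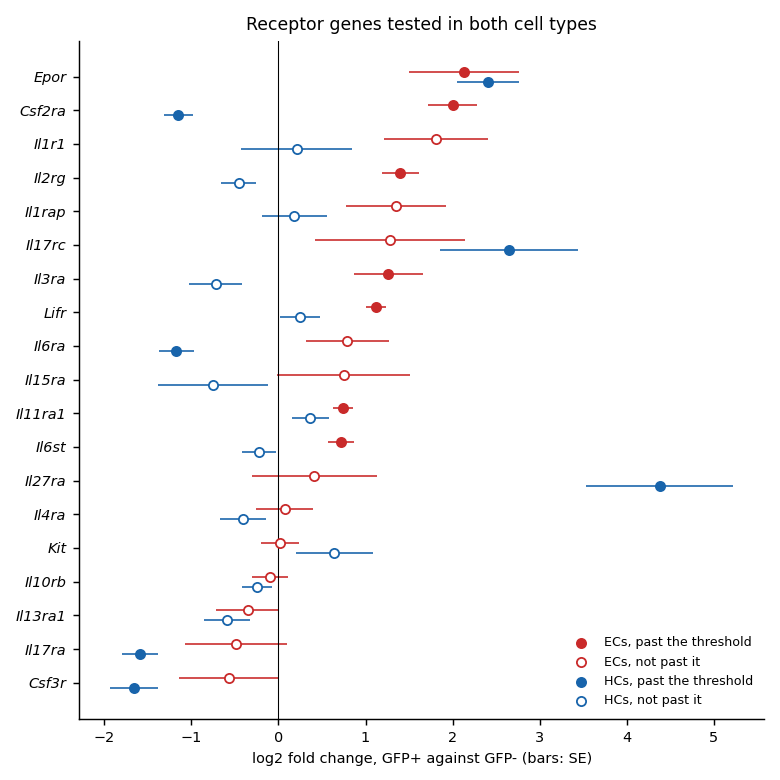
Log2 fold change of GFP+ against GFP- pools (horizontal, bars are SE) for the 19 receptor genes tested in both ECs and HCs, with filled points past the threshold. Epor lies to the right in both cell types and Csf2ra to the right in ECs and to the left in HCs, and Osmr, not tested in HCs, is not drawn.

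Between the cell types themselves, with the GFP fractions averaged, 23 of 28 members differed (82.1%, against 50.6% of 17851 genes), 16 higher in HCs (against 26.6% of genes) and 7 higher in ECs (against 24.0%). Those higher in HCs were led by Il10ra, the IL-10-binding chain (log2 fold change 6.61 ± 0.25, adjusted p = 3.25e-39), Il7r (6.46 ± 0.61), Il21r (6.15 ± 0.26), Csf2rb (6.1 ± 0.27) and Il6ra (5.26 ± 0.23). Il10ra, Il7r, Il21r and Csf2rb, like Csf2rb2, Il2rb, Il1rl1 and Flt3, had too few counts to be tested in ECs alone. They entered this fit through HC pools, so the filter favored the higher direction for them and in the count of members higher in HCs. Osmr entered through EC pools in the same way. ECs had more Osmr (-4.14 ± 0.31), Il27ra (-2.51 ± 0.55), Lifr (-1.92 ± 0.13), Il11ra1 (-1.69 ± 0.12), Kit (-1.44 ± 0.25), Il2rg (-0.64 ± 0.15) and Il6st (-0.53 ± 0.13) with the fractions averaged. In the GFP- fractions alone, Il2rg was at 29.9 ± 13 CPM in HCs and 23.7 ± 12.2 CPM in ECs, and Il6st at 36 ± 12.3 and 36.6 ± 10.1 CPM. The gp130 family was thus split, with the IL-6-binding chain Il6ra at 84.3 ± 18 CPM in GFP- HCs and 1.07 ± 0.761 CPM in GFP- ECs, and Osmr, Lifr, Il11ra1, Il27ra and, in the average, Il6st higher in ECs. The calls of Il2rg and Il6st did not hold with ERCC scaling (-0.20 and -0.17), nor that of Il2rb (5.02 ± 0.73) without the HC pools high in granulocyte markers (3.13).

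At E11.5, with every library under its label, 0 of 15 receptors tested passed between GFP+ and GFP- MCs (against 4.36% of 16026 genes) and 0 of 15 between GFP+ and GFP- SNS cells (against 3.87% of 16143 genes) in edgeR. At an unadjusted p under 0.05 there were 6 of 15 in MCs (against 3611 of 16026 genes) and 4 of 15 in SNS cells (against 3475 of 16143 genes). DESeq2 called 2 in MCs (Il1rap and Il2rg, against 974 of all genes) and 0 in SNS cells (against 906). The study's own test, rerun here, called 1 in MCs (Il1rap, against 813 of all genes) and 0 in SNS cells (against 475). Without the 12 libraries, 4 of 15 passed in MCs (against 10.4% of 15226 genes) and 1 of 13 in SNS cells (against 10.4% of 15658 genes), each higher in GFP+ cells, where 5.52% and 4.94% of genes were higher.

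Kit was called in both. Without the 12 libraries it had 41.7 to 153 CPM (median 96.6) in GFP+ and 31.8 to 83.3 CPM (median 55.3) in GFP- MCs, and 12 of 17 GFP+ pools were above all GFP- pools. The log2 fold change was 0.86 ± 0.16, adjusted p = 1.86e-04, against 0.65 ± 0.21, adjusted p = 0.0445, with all libraries. In SNS cells Kit had 33.9 to 86.6 CPM (median 51) in GFP+ and 0.208 to 31 CPM (median 13.9) in GFP- pools. There the fractions did not overlap (log2 fold change 1.85 ± 0.28, adjusted p = 1.10e-05), whereas with all libraries a GFP- library reached 122 CPM (1.02 ± 0.36, adjusted p = 0.0745). The difference between the Kit effects in SNS cells and MCs did not pass without the 12 (0.99 ± 0.32, adjusted p = 0.0239). Marker lists also differed between the SNS fractions without the 12. Of 10 sympathetic markers 10 were higher in GFP+ cells (sums of 813 to 3837 CPM against 166 to 877 CPM), and of 10 mesenchymal markers 8 were lower (112 to 345 CPM against 406 to 949.6 CPM). Kit is also carried by melanoblasts, whose 6 markers summed to 0.400 to 5.65 CPM in GFP+ and 3.58 to 64.6 CPM in GFP- SNS pools. The part of these markers in the Kit difference was not tested.

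The other receptors called in MCs without the 12 libraries were Il1rap, Il2rg and Il13ra1. Il1rap had 7.71 to 112 CPM (median 27) in GFP+ and 0.277 to 29.5 CPM (median 7.04) in GFP- MCs (log2 fold change 1.93 ± 0.42, adjusted p = 0.0011, and 1.42 ± 0.40, adjusted p = 0.0174, with all libraries). Il2rg had 5.85 to 39.96 CPM (median 13.6) against 1.51 to 14.9 CPM (median 5.32) (1.52 ± 0.35, adjusted p = 0.00157, and 1.52 ± 0.47, adjusted p = 0.0319, with all libraries). Il13ra1 had 21.3 to 93.7 CPM (median 53.9) against 0.270 to 53.9 CPM (median 24.8) (1.18 ± 0.32, adjusted p = 0.00771, and 1.02 ± 0.40, adjusted p = 0.107, with all libraries). In all 3 genes the fractions overlapped. Marker lists differed between the MC fractions too, without the 12. Of 10 mesenchymal markers 4 were higher in GFP+ cells and 1 lower (sums of 4006 to 5759.6 CPM against 2847 to 4296 CPM). Of 5 sympathetic markers tested 2 were higher (100 to 216 CPM against 18.2 to 125 CPM). Among those tested, 1 of 6 endothelial and 1 of 2 megakaryocyte markers were higher. The part of these markers in the MC differences was not tested. Of the gp130 group, Il6st, Lifr and Il11ra1 were abundant in MCs and did not pass. Il6st was at 71 ± 18.5 and 70.5 ± 11.6 CPM, Lifr at 81.5 ± 25.1 and 82.6 ± 35 CPM, and Il11ra1 at 101 ± 24.6 and 83.6 ± 19.2 CPM in GFP+ and GFP- cells. Il27ra was low and did not pass either, and Il6ra and Osmr had too few counts to be tested in MCs. In SNS cells Il6st (-0.77 ± 0.22, adjusted p = 0.0111) and Il11ra1 (-0.75 ± 0.21, adjusted p = 0.0116) fell short of the threshold without the 12.

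**Figure D5:**
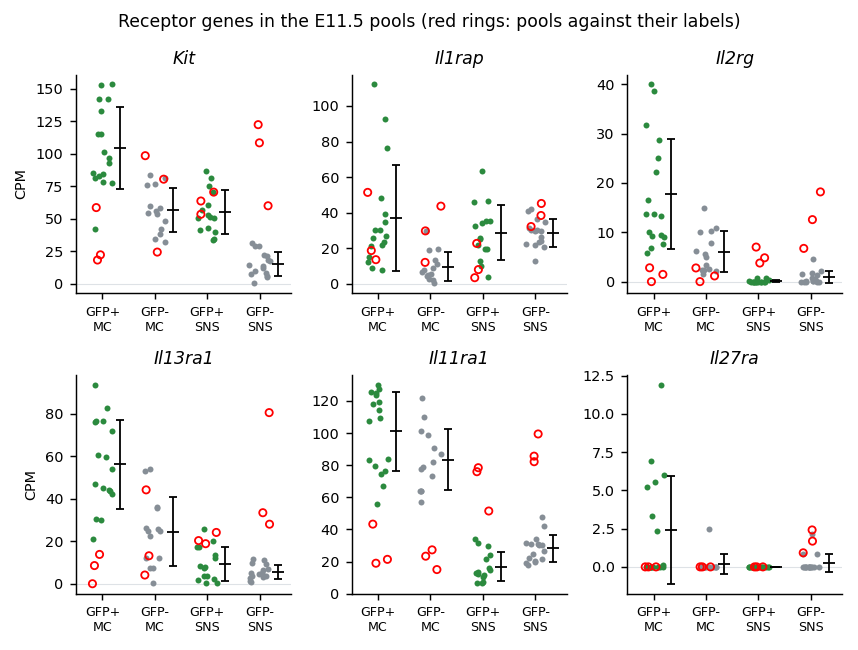
CPM of 6 receptor genes in the E11.5 pools, 1 point per pool, for GFP+ and GFP- libraries, with red rings for the 12 libraries against their labels and bars for the mean ± SD of the others. Without the ringed pools Kit is higher in the GFP+ fraction of both cell types.

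Between SNS cells and MCs, with the fractions averaged, 10 of 16 members were lower in SNS cells and 0 higher (62.5%, against 23.4% of 17733 genes in either direction and 12% lower), and without the 12 libraries 10 of 16 were lower (against 40.2% of 17309 genes in either direction and 19.7% lower). Il2rg differed by -2.49 ± 0.50 with all libraries and -4.79 ± 0.41 without the 12, Epor by -1.97 ± 0.56 and -3.75 ± 0.54, and Il1r1, the signaling receptor of IL-1, by -2.52 ± 0.56 and -3.48 ± 0.52. Il27ra (-2.33 ± 0.70 and -3.05 ± 0.81), Il13ra1 (-1.53 ± 0.33 and -2.33 ± 0.28), Il11ra1 (-1.38 ± 0.20 and -2.07 ± 0.13), Il6st (-1.23 ± 0.20 and -1.88 ± 0.13), Lifr (-0.93 ± 0.18 and -1.47 ± 0.14), Kit (-0.89 ± 0.21 and -1.39 ± 0.16) and Csf2ra (-0.48 ± 0.15 and -0.71 ± 0.15) made up the rest. With ERCC scaling of all libraries the Csf2ra value turned to 0.026, and neither it nor Epor (-1.56) nor Kit (-0.46) passed. Il2rg was at 0.129 ± 0.261 and 0.845 ± 1.21 CPM in GFP+ and GFP- SNS cells without the 12. Without the 12, Il2rg, Epor and Il27ra had too few counts to be tested in SNS cells alone, as had Il27ra with all libraries. There they entered the fit through MC pools, so the filter favored the lower direction for them and in the count of lower members. Il1rap was not called between the cell types (0.39 ± 0.23, adjusted p = 0.203, with all libraries, and 0.63 ± 0.24, adjusted p = 0.0241, without the 12).

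The effect of GFP differed between SNS cells and MCs for 2 of 16 members with all libraries (12.5%, against 9.66% of 17733 genes) and for 4 without the 12 (against 10.4% of 17309 genes). Il1rap differed by -1.65 ± 0.47, adjusted p = 0.00838, with all libraries, and -1.92 ± 0.48, adjusted p = 0.00245, without the 12, SNS minus MC. Il2rg (-4.03 ± 0.79, adjusted p = 9.89e-05) and Il11ra1 (-1.01 ± 0.25, adjusted p = 0.00206) passed without the 12. Il2rg had too few counts to be tested in SNS cells alone there, so the SNS side of its difference rests on few reads. Il27ra was called both ways, but it was at 0 in 18 of 18 GFP+ SNS libraries, so its fitted value depends on the prior count. Its means were 2.07 ± 3.36 CPM in GFP+ MCs, 0.145 ± 0.596 in GFP- MCs and 0.467 ± 0.799 in GFP- SNS cells with all libraries.

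Genes around these receptors were read from lists, whose counts stand beside those of all genes. In ECs 19.5% of all genes tested were higher and 36.0% called in either direction, and in HCs 17.1% of all genes tested were higher, 9.53% lower and 26.6% called in either direction. In ECs, 6 of 11 JAK and STAT genes were higher in GFP+ cells and 1 was lower (median log2 fold change 0.67, against 0.10 for all genes). Stat4 (2.91 ± 0.56, adjusted p = 3.44e-05) and Stat6 (1.29 ± 0.21, adjusted p = 1.60e-06), which act after IL-12 and IL-4, were among those higher, and Jak1, a kinase bound to gp130, was lower (-0.39 ± 0.12, adjusted p = 0.00752). Of 15 feedback regulators 4 were higher and 0 lower (median 0.46), against 19.5% of all genes higher and 36.0% called. They included Ptpn6 (1.75 ± 0.34) and Sh2b3 (1.05 ± 0.14), both brakes on cytokine signaling. Of 8 genes of the MyD88 and IL-17 adaptors (median 0.11), Myd88 was higher (1.05 ± 0.22) and Traf3ip2 lower (-1.46 ± 0.31).

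In HCs 1 of 11 JAK and STAT genes was higher and 2 were lower (median -0.36, against 0.049 for all genes), against 26.6% of all genes called in either direction. Jak2, the kinase of the erythropoietin receptor, was higher in GFP+ HCs (0.92 ± 0.24, adjusted p = 0.0024), and Stat6 (-0.84 ± 0.15) and Jak1 (-0.36 ± 0.10) were lower. Of 15 feedback regulators 3 were higher, including Cish (3.16 ± 0.66) and Socs2 (2.39 ± 0.55), which are known targets of STAT5, and 2 were lower, Ptpn6 (-0.97 ± 0.15) and Sh2b3 (-0.64 ± 0.15), with a median of 0.10. In the MyD88 list 3 of 8 were lower (median -0.61), among them Myd88 (-0.80 ± 0.16) and Irak4 (-0.74 ± 0.15), and Traf3ip2 was higher (2.24 ± 0.60). The GFP effect itself differed between HCs and ECs for Stat6 (-2.13 ± 0.26), Ptpn6 (-2.69 ± 0.34), Sh2b3 (-1.7 ± 0.21), Myd88 (-1.85 ± 0.27), Traf3ip2 (3.7 ± 0.65) and Cish (4.08 ± 0.79).

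Of 27 ligand genes with a row, 6 could be tested in ECs, of which 4 were higher and 1 lower in GFP+ cells (median 2.56), against 19.5% of all genes higher and 36.0% called in either direction. Clcf1, a ligand that signals through gp130 and Lifr, was at 26.7 ± 14.5 CPM in GFP+ and 0.713 ± 1.3 CPM in GFP- ECs (5.14 ± 0.49, adjusted p = 1.22e-11). Il33, the ligand of Il1rl1, was higher (3.74 ± 0.93), and Kitl, which encodes stem cell factor, was lower, at 57.6 ± 34.8 against 108 ± 50.3 CPM (-0.95 ± 0.23, adjusted p = 7.94e-04). In HCs 10 ligands were tested, of which 1 was higher, Clcf1 (2.54 ± 0.69), and 3 were lower, among them Il6 (-3.3 ± 0.89) and Ebi3 (-1.54 ± 0.28), with a median of -0.68, against 17.1% of all genes higher and 9.53% lower. In SNS cells Kitl was lower in GFP+ libraries (-1.13 ± 0.23, adjusted p = 0.00147, and -1.37 ± 0.23 without the 12), and in MCs Il7 was higher (5.62 ± 0.92, adjusted p = 6.58e-05, and 6.08 ± 0.93 without the 12). Il7 was at 0 in 15 of 17 GFP- MC pools, so its fitted value depends on the prior count.

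Of 30 further receptor genes 12 were tested in ECs, with 5 higher and 1 lower (median 0.81), against 19.5% of all genes higher and 36.0% called in either direction. The growth hormone receptor Ghr was at 65.5 ± 21.9 against 14.3 ± 9.62 CPM (2.15 ± 0.24, adjusted p = 4.55e-10), Crlf2 was higher (1.21 ± 0.26) and the leptin receptor Lepr lower (-2.46 ± 0.57). In HCs 19 were tested, with 6 higher and 4 lower (median 0.10), against 17.1% and 9.53% of all genes. Cntfr, which binds ciliary neurotrophic factor, was higher (4.03 ± 0.71), at 6.02 ± 6.13 CPM in GFP+ HCs, and the interferon receptors Ifngr1 (-1.29 ± 0.23) and Ifnar2 (-0.80 ± 0.15) were lower. In GFP+ SNS cells without the 12 libraries Cntfr was at 33.4 ± 9.85 CPM, and the part of the sympathetic markers of GFP+ HC pools in its HC level was not tested.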

How the data were processed

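RNA of 20-cell pools was amplified by Smart-seq2 and sequenced as single 125-base reads. The authors deposited whole-number read counts per Ensembl gene, with ERCC spike-ins and the counter's categories for unassigned reads. The study's methods name STAR with Ensembl annotation, and the submitters' processing notes name GSNAP, HTSeq 0.5.3p3 and mm10. The aligner is therefore uncertain, and strand and overlap settings are not given in the sources used here. A median of 16.3% of reads was ambiguous, so overlapping genes can lose counts. Unassigned categories and spike-ins stayed out of library sizes.

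The study's limits on reads and composition (over 500000 reads, over 20% on genes, under 20% mitochondrial and under 20% ERCC) left 153 of 160 pools. Its further limit on the number of high coverage genes was not applied, and each of these pools had at least 9888 genes with 10 counts or more. A gene entered a comparison if 5 or more of its pools held 10 counts or more, and edgeR 4.0.16 (R 4.3.3) then gave the quasi-likelihood test with TMM and robust dispersion, adjusted over all genes that entered. DESeq2 1.42.0, scran 1.30.0 and scanpy 1.11.5 gave alternatives. The study's own test, a t-test with overestimated variance, was rerun in this scanpy version with the filter and threshold above. In ECs and HCs the rerun called more genes than the study reported, so its calls are not the study's. The test was tried on simulated data. All members are named by role, with full values for up to 10 called members per comparison, and lists by up to 2 genes each way. The members and lists were chosen with earlier results of these data known. A withheld item is not reported here.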

Additional observations from a re-analysis of the deposited data

Results flagged for a closer look

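The effect of GFP differed between cell types for several receptors, by the interaction term of the edgeR fit, which tests the difference itself. Between HCs and ECs (HC minus EC) the log2 difference was -3.45 ± 0.65 for Osmr, -3.15 ± 0.31 for Csf2ra, -1.98 ± 0.44 for Il6ra, -1.98 ± 0.50 for Il3ra, -1.87 ± 0.30 for Il2rg, -0.94 ± 0.25 for Il6st, -0.88 ± 0.25 for Lifr and 3.9 ± 1.07 for Il27ra. The HC side of the Osmr value rests on few reads, since Osmr had too few counts to be tested in HCs alone. With ERCC scaling the calls of Il6ra, Il3ra, Il6st and Lifr were lost, and the Il27ra call was lost without the HC pools high in sympathetic or in granulocyte markers. Between SNS cells and MCs (SNS minus MC) it was -7.89 ± 1.53 for Il27ra, a value that depends on the prior count, and -1.65 ± 0.47 for Il1rap, with all libraries. Without the 12 libraries it was -6.89 ± 1.62 for Il27ra, -1.92 ± 0.48 for Il1rap, -4.03 ± 0.79 for Il2rg and -1.01 ± 0.25 for Il11ra1, each past the threshold. The SNS side of that Il2rg value rests on few reads.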

How the results depend on the processing

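Counts of called receptors stayed within 1.5 times under the other alternatives run. With ERCC scaling 3 were called in ECs, 1 in SNS cells and 4 for the HC against EC difference of GFP effects, and Csf2ra between SNS cells and MCs turned to 0.026. In MCs, against 0, there were 2 with DESeq2, 1 in 1 fit of the 4 populations, 1 with the study's own test and 4 at an adjusted p under 0.05. In SNS cells, against 0, there was 1 with no filter on low counts and 1 in 1 fit of the 4 populations, both Il27ra as lower. For the SNS against MC difference of GFP effects, against 2, there was 1 with at least 10 counts in at least 20 pools and 5 at an adjusted p under 0.05. Without the 12 libraries against their labels, an alternative chosen after seeing the data like the others that leave out pools by their markers, the counts were 4 in MCs, 1 in SNS cells and 4 for the difference. ERCC scaling also moved the split of all genes, to 276 genes higher and 105 lower in MCs (with TMM 354 genes higher and 344 lower), 844 genes higher and 169 lower in SNS cells (325 genes higher and 300 lower), 7403 genes higher and 2509 lower for HCs against ECs (4748 genes higher and 4282 lower), 7623 genes higher and 922 lower for SNS cells against MCs (2013 genes higher and 2135 lower), and 5241 genes higher and 519 lower (2524 genes higher and 1536 lower) and 1423 genes higher and 443 lower (917 genes higher and 796 lower) for the differences of GFP effects. The cause was not tested. No paired analysis was possible because the columns carry no replicate number. Values of receptors with few counts, such as Il27ra and Il17rc, are imprecise, and why their counts were few was not tested.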
